A study of Mus musculus with 6 samples.

Results

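The Notch pathway genes described here are 3 receptor genes (Notch1, Notch3 and Notch4), 4 ligand genes (Jag1, Jag2, Dll1 and Dll4) and 3 effector genes (Hes1, Numb and Maml1), 10 named genes among the 34614 protein-coding and lncRNA genes of the mouse annotation. Their DNA methylation was read by reduced representation bisulfite sequencing, which samples cytosines in CpG-rich fragments, in intestinal organoids, cultures of gut epithelium grown in organoid medium. The organoids of both groups carried the Apc Min genotype, which shortens the Wnt antagonist Apc, and both were kept in medium low in glutamine. The control group had 3 replicates and the other group had 3 replicates treated with DM-aKG, which the series title links to α-ketoglutarate at a dose and for a time that the labels do not give. The study calls them biological replicates, and whether each came from a separate animal or culture is not stated. The p-values set the group difference against the spread between libraries of the same group, and what that spread covers is not known. The tissue label could not be checked against expressed markers, because methylation levels do not give expression.

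The genes were followed in the first 47.9% of the 813850 deposited positions (chromosomes 1, 2 and 10 to 19, with part of 3), within each gene span and 1000 bases on each side. In this share of the table the libraries correlated at 0.598 to 0.770, while in the later rows control replicates 1 and 2 correlated at -0.0038 to 0.0025 with the other 4 libraries, so those rows were left out. These windows held 549 positions, of which 402 (73.2%) had a value in all 6 libraries, against 69.8% of positions in all; these are called complete sites below. Of the 10 genes, 9 had at least 3 complete sites and were tested among 9197 such genes in all. Hes1, which encodes a repressor switched on directly by Notch, had a single position, with a value of 100% in DM-aKG replicate 2 and none in the other 5 libraries, so it has no level here. Values are whole percentages from 40 to 100, and a 0 is taken as no value, since it can be either a level below 40% or a missing call. No read depth is given for any level, so depth is unknown, and the DNA is that of a whole culture, so a change in the mixture of cells and a change within cells cannot be told apart.

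Notch receptors are single-pass membrane proteins that are cut when a ligand on a neighbouring cell binds them; the freed intracellular domain enters the nucleus, binds Rbpj and a Mastermind coactivator, and switches on Hes genes. In the intestinal crypt this signal keeps stem cells and favours the absorptive over the secretory fate, with Notch1 as a main receptor and Dll1 and Dll4 as the main ligands. Methylation of CpGs in a promoter usually goes with silencing, whereas the bodies of active genes are usually methylated.

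The promoters set the frame for what the table can say about these genes, so 3 of them are shown, each running from 250 bases before to 50 bases after an annotated start (RefSeq, GRCm38.p6, the assembly of mm10; minus strand for Dll1 and Jag2, plus strand for Notch4). Dll1 (chr17:15376883-15377182) is the member promoter with positions in the table, and capitals mark the 7 CpGs that have one. Jag2 (chr12:112929446-112929745) has the most CpGs among the member promoters and Notch4 (chr17:34564045-34564344) few, and in these capitals mark every CpG.
Dll1: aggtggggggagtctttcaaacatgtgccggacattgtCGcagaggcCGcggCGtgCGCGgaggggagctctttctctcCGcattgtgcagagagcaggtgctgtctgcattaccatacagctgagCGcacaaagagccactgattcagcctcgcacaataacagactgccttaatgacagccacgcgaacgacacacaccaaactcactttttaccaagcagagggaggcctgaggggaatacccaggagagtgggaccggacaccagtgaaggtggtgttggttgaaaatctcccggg
Jag2: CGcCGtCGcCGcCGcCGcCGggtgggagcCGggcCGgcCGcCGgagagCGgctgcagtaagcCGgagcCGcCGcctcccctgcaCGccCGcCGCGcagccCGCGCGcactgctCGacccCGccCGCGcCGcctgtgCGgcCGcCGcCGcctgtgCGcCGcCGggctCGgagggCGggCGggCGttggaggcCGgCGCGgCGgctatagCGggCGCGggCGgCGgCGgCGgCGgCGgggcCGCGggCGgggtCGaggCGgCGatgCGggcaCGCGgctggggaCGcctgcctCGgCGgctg
Notch4: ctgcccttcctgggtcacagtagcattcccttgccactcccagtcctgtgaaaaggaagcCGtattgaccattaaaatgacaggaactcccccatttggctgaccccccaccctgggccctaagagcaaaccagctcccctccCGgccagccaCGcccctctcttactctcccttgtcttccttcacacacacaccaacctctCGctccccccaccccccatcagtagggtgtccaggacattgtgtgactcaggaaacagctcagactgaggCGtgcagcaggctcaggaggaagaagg
The Jag2 window held 63 CpGs, the Dll1 window 15 and the Notch4 window 5, against a median of 7 over 18212 promoter windows of the chromosomes used. No position of the table lay in the windows of Jag2 or Notch4, nor in those of Notch1 (23 CpGs), Notch3 (25), Jag1 (22), Dll4 (17) or Maml1 (24), in 3 windows of Numb, or in the window at a later start of Dll1. A position was present in 4.32% of all promoter windows. No promoter window was held for Hes1. The levels below are therefore levels of gene bodies at or above 40%, and complete sites began 664 bases from the nearest start in Notch4, 1059 in Numb, 1092 in Notch3, 2264 in Dll4, 3558 in Jag2, 6728 in Dll1, 9830 in Notch1, 12134 in Jag1 and 24055 in Maml1.

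The measured bodies of the Notch pathway genes were highly methylated in both groups, and none of the 9 tested genes passed the test for a difference with DM-aKG. Averaged over the 9 genes, the controls stood at 90.7% ± 0.860 (SD, n = 3) and the treated libraries at 90.8% ± 0.491 (SD, n = 3). All 9197 tested genes averaged 87.0% and 88.0%. A complete site needs a value of at least 40% in each library, which keeps these levels high. A site that fell below 40% with DM-aKG is left out, so the gene test does not cover such losses. By limma on percent levels, adjusted by Benjamini-Hochberg over all genes with a threshold of 0.05, 0 of the 9 passed and 0 had an unadjusted p under 0.05; the smallest adjusted p was 0.751, for Notch3. The 95% intervals of the 9 reached from -5.01 to 5.91 points, so differences of that size are not excluded. On log2 odds of the level limma called 0 of the 9 as well. The background was 0.0109% of genes past the adjusted threshold and 6.37% with an unadjusted p under 0.05. Of the 9 genes 5 were at higher levels and 4 at lower levels with DM-aKG, with a median difference of 0.164 percentage points, while among all genes 66.3% were higher and the median was 0.733 points. These directions depend on how libraries are scaled: with library means equalised, 2 of the 9 (Notch3 at 1.35 points and Maml1 at 0.404) were higher, and with each 0 taken as a level of 0, Notch1 was (3.71 points) and the other 8 were lower, with 0 of the 9 passing by limma in either setting.

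**Figure D1:**
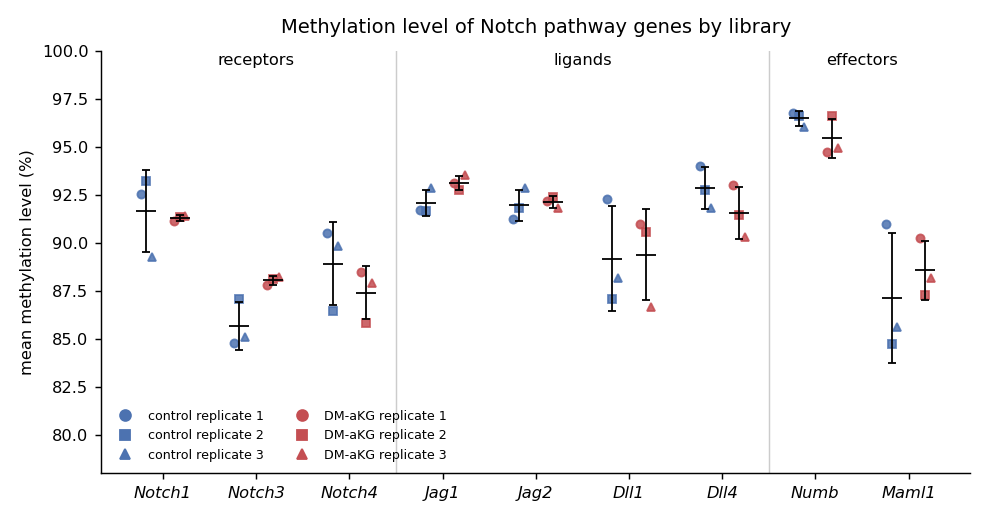
Mean methylation level over complete sites (%, vertical axis, not starting at 0) of the 9 tested Notch pathway genes (horizontal axis), with a point per library (blue control, red DM-aKG; the shape gives the replicate) and black bars giving group means with their SD (n = 3). Numb stands highest at 96.5% and 95.5% in the 2 groups, and Notch3 is the gene whose groups do not overlap.

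Across the 6 libraries the order of levels was Numb (96.0%), Jag1 (92.6%), Dll4 (92.2%), Jag2 (92.1%), Notch1 (91.5%), Dll1 (89.3%), Notch4 (88.2%), Maml1 (87.8%) and Notch3 (86.8%). The 6 libraries of Numb lay above those of Jag1 without overlap. From Jag1 down to Notch3, each gene overlapped the next in the order. By role, receptors went from 88.7% ± 0.623 (SD, n = 3) in control libraries to 88.9% ± 0.415 in treated ones, ligands from 91.5% ± 0.749 to 91.6% ± 0.904, and effectors from 91.8% ± 1.81 to 92.0% ± 0.475. The differences of 0.169, 0.0372 and 0.207 points were smaller than these SDs, and with library means equalised they were -0.882, -1.01 and -0.843 points. Without control replicate 3 the receptor difference was -0.175 points. The ligand difference turned negative without any one of control replicates 2 and 3 or DM-aKG replicates 1 and 2 (-0.345 to -0.0141 points), and that of effectors without control replicates 2 or 3 or DM-aKG replicate 1 (-0.355 to -0.0436 points).

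**Figure D2:**
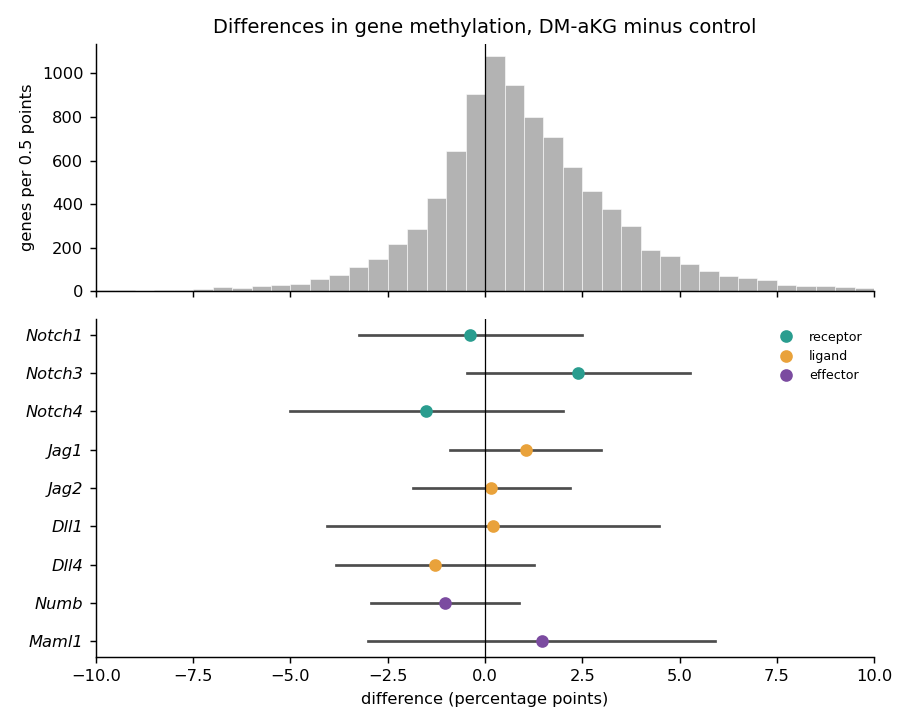
Upper panel, number of genes (vertical axis) by difference in methylation level, DM-aKG minus control, in bins of 0.5 percentage points (horizontal axis, cut at -10 and 10 points) over the 9197 tested genes. Lower panel, the difference of each Notch pathway gene with its 95% interval from limma; the 9 intervals include 0, and the differences run from -1.51 to 2.40 points.

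Among the receptors, Notch3, a receptor best known from vascular smooth muscle, had higher values in the 3 treated libraries than in any control. Its 61 complete sites averaged 84.8%, 87.1% and 85.1% in control replicates 1 to 3 and 87.8%, 88.1% and 88.2% in DM-aKG replicates 1 to 3. The treated libraries lay close together just above the highest control. The difference was 2.40 points (95% interval -0.462 to 5.26, limma adjusted p = 0.751). Groups that do not overlap in this direction were found in 11.3% of all genes. Of the 61 sites 34 lie inside the lncRNA genes Gm38585 and Gm41568, whose spans overlap Notch3, and without sites inside another gene the difference was 2.96 points. It was 1.35 points with library means equalised and -0.533 with each 0 taken as a level of 0.

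Notch1, a main receptor of crypt stem cells, had nearly equal levels in the 2 groups. Its 48 sites averaged 92.6%, 93.2% and 89.3% in the controls and 91.1%, 91.4% and 91.4% with DM-aKG. The control libraries were spread on both sides of the treated ones. The difference was -0.382 points (95% interval -3.25 to 2.48, limma adjusted p = 0.945), and it was 0.0625 without control replicate 1 and 0.385 without control replicate 2. Notch4, a receptor known mostly from endothelium, averaged 90.5%, 86.4% and 89.8% over 32 sites in the controls and 88.5%, 85.8% and 87.9% with DM-aKG. The groups overlapped, with a difference of -1.51 points (95% interval -5.01 to 1.99, limma adjusted p = 0.796). It was -0.719 without control replicate 1, -0.729 without DM-aKG replicate 2, -2.75 without control replicate 2 and -2.56 with library means equalised.

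Among the ligands, Jag1, which presents itself to Notch receptors on neighbouring cells, had 27 sites at 91.7%, 91.7% and 92.9% in the controls and 93.1%, 92.8% and 93.5% with DM-aKG. The highest control lay just above the lowest treated library. The difference was 1.05 points (95% interval -0.890 to 2.99, limma adjusted p = 0.763), and it vanished (-0.0012 points) with library means equalised. Jag2, the other Jagged ligand, had the most sites of any member, 134. They averaged 91.2%, 91.8% and 92.8% in the controls and 92.2%, 92.4% and 91.8% with DM-aKG, with the treated libraries inside the range of the controls. The difference of 0.164 points (95% interval -1.86 to 2.19, limma adjusted p = 0.967) was -0.886 with library means equalised and -0.200 without control replicate 1.

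Dll4, a Delta ligand of crypt and endothelial cells, had 53 sites at 94.0%, 92.7% and 91.8% in the controls and 93.0%, 91.5% and 90.3% with DM-aKG. The groups overlapped, and the difference was -1.28 points (95% interval -3.82 to 1.26, limma adjusted p = 0.776). It was -0.629 when DM-aKG replicate 3 was left out, -0.695 when control replicate 1 was, -1.99 when DM-aKG replicate 1 was, and -2.33 with library means equalised. Dll1, a Delta ligand made by secretory progenitors in the crypt, had 11 complete sites at 92.3%, 87.1% and 88.2% in the controls and 91.0%, 90.5% and 86.6% with DM-aKG. The lowest library was a treated one and the highest a control. The difference was 0.212 points (95% interval -4.06 to 4.48, limma adjusted p = 0.981); it was -0.839 with library means equalised, and between -0.833 and -0.288 without control replicate 2 or 3 or DM-aKG replicate 1 or 2.

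Among the effectors, Numb, an endocytic adaptor that antagonises Notch, had 25 sites at 96.8%, 96.6% and 96.0% in the controls and 94.8%, 96.6% and 95.0% with DM-aKG. DM-aKG replicate 2 lay among the controls and the other treated libraries below them. The difference was -1.04 points (95% interval -2.94 to 0.859, limma adjusted p = 0.761); it was -1.63 without DM-aKG replicate 2, -2.09 with library means equalised and -11.8 with each 0 taken as a level of 0. Maml1, a Mastermind coactivator that joins the Notch intracellular domain on DNA, had 11 sites at 91.0%, 84.7% and 85.6% in the controls and 90.3%, 87.3% and 88.2% with DM-aKG. Control replicate 1 was the highest library and the other controls the lowest. The difference was 1.45 points (95% interval -3.00 to 5.91, limma adjusted p = 0.853); it was 3.39 without control replicate 1, 0.258 without control replicate 2, 0.712 without control replicate 3, 0.606 without DM-aKG replicate 1 and 0.404 with library means equalised.

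Site by site, no position of a member passed the test, but in simulated data this test called no changed site at any size tried, so that count says nothing about whether sites changed. Of the 402 complete sites 354 (88.1%) had a mean level of 80% or more, against 79.1% of sites in the whole table. With DM-aKG 206 sites were higher, 164 lower and 32 equal, and the median size of a site's difference was 3.00 points, the same as over all 272327 complete sites. Each cytosine position counts as a site here. Adjacent positions, which can be the strands of the same CpG, are counted separately, so these counts are not of independent CpGs. By limma adjusted over all sites, 0 member sites and 0.0% of all sites passed, also on log2 odds. An unadjusted p under 0.05 was found at 13 member sites (3.23%), 7 higher and 6 lower, and at 4.49% of all sites (2.87% higher, 1.62% lower). The groups did not overlap at 21 member sites (5.22%), 11 higher and 10 lower, against 7.13% of all sites (4.63% higher, 2.5% lower). Taken over both directions these shares were below the background. The median half-width of a site's 95% interval was 9.71 points in the members.

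**Figure D3:**
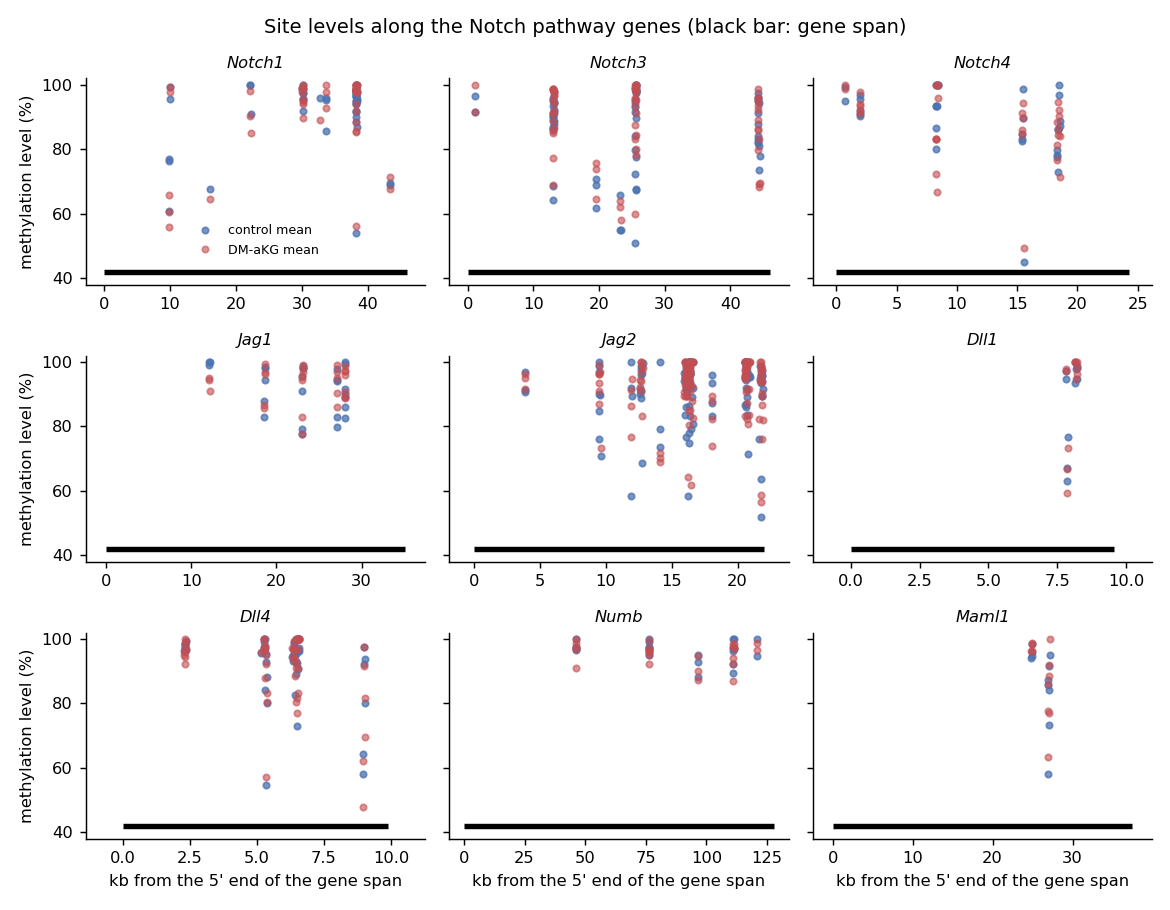
Methylation level (%, vertical axis) of each complete site against its distance from the upstream end of the gene span (kb, horizontal axis) in the 9 tested genes, as the mean of the 3 controls (blue) and of the 3 DM-aKG libraries (red); the black bar is the gene span. Sites fall in a few dense clusters inside the spans, most of them above 80% in both groups, and none lies at the upstream end of Notch1, Jag1, Dll1, Numb or Maml1.

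Some single sites had wide differences without passing. In Notch1 a site at chr2:26493992, 9830 bases from the start, was at 87%, 63% and 79% in the controls and at 59%, 59% and 50% in the treated libraries, which makes -20.3 points (95% interval -37.8 to -2.82, limma adjusted p = 0.831). Another Notch1 site, 22208 bases from the start, was at 100% in the 3 controls and at 88%, 94% and 89% with DM-aKG. At both the treated libraries lay below the controls without overlap, as they did at 3 Notch1 sites in all and at none in the other direction. The Notch1 site with the largest rise, at chr2:26465452, had 100%, 89% and 72% in the controls and 100%, 93% and 100% with DM-aKG (10.7 points, limma adjusted p = 0.831), with overlapping groups.

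In Notch3 the site with the largest rise, at chr17:32141305 inside Gm41568, was at 62%, 71% and 69% in the controls and at 85%, 76% and 92% with DM-aKG (17.0 points, 95% interval 3.88 to 30.1, limma adjusted p = 0.831). It lies in a run of 20 complete sites over 151 bases, which averaged 85.5%, 90.3% and 87.2% in the controls and 93.4%, 91.6% and 90.7% with DM-aKG. The lowest treated library of that run stood just above the highest control. The site with the largest fall, inside Gm38585, had 100%, 100% and 83% in the controls and 62%, 58% and 88% with DM-aKG, with groups that overlapped. The position adjacent to this fall, chr17:32122536, had 92%, 50% and 79% in the controls and 71%, 87% and 92% with DM-aKG. The position adjacent to the largest rise, chr17:32141304, had 55%, 69% and 79% in the controls and 88%, 73% and 74% with DM-aKG.

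Jag2 held both directions close together. At chr12:112913469 the controls had 100%, 96% and 95% and the treated libraries 76%, 86% and 79% (-16.7 points, 95% interval -27.2 to -6.12), while at chr12:112913531 the controls had 69%, 89% and 67% and the treated libraries 94%, 95% and 97% (20.3 points, 95% interval 3.70 to 37.0). The groups did not overlap at either site, and the limma adjusted p of both was 0.831. The site with the largest fall in Jag2, at chr12:112915716, was at 100% in the 3 controls and at 50%, 100% and 57% with DM-aKG, so that DM-aKG replicate 2 was like the controls. Of the member sites 8 had a mean under 60% over the 6 libraries, and the lowest was at chr17:34579862 in Notch4, with 46%, 48% and 41% in the controls and 42%, 50% and 56% with DM-aKG.

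In Notch4 the site with the largest rise, at chr17:34582708, had 95%, 68% and 56% in the controls and 95%, 100% and 89% with DM-aKG (21.7 points, 95% interval -4.55 to 47.9). The Notch4 site with the largest fall, at chr17:34572597, had 100%, 80% and 100% in the controls and 100%, 50% and 50% with DM-aKG (-26.7 points, 95% interval -65.1 to 11.8). The groups overlapped at both, with a limma adjusted p of 0.831. At chr17:34582709, adjacent to the rise, the controls had 95%, 74% and 90% and the treated libraries 89%, 64% and 100%. The position adjacent to the fall, chr17:34572596, was at 100% in each library, so the adjacent positions did not repeat these differences. A Dll4 site at chr2:119332303 was at 100% in 5 libraries and at 50% in DM-aKG replicate 3, while the site 1 base away had 86%, 86% and 100% in the controls and 100% in the treated libraries. In Jag1 a site at chr2:137104333 was at 100% in the controls and at 82%, 97% and 94% with DM-aKG, and another at chr2:137088492 had 74%, 92% and 92% against 100%, 96% and 96%. The groups did not overlap at these Jag1 sites, with differences of -9.00 and 11.3 points and a limma adjusted p of 0.831. In Numb the extremes were -7.67 and 5.33 points, in Maml1 -8.00 and 7.67, and in Dll1 -7.67 and 6.67, with overlapping groups at each.

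Runs of at least 3 complete sites with gaps of at most 100 bases, a unit added after the site values were seen, gave 44 stretches in the members and 32358 in all. By limma 0 member stretches and 0.0% of all stretches passed the adjusted threshold, and an unadjusted p under 0.05 was found in 4 member stretches (9.09%) and in 5.15% of all. The groups did not overlap in 5 member stretches (11.4%), against 10.9% of all. In Notch1 a stretch of 3 sites at chr2:26470148-26470204 was at 92.3%, 91.7% and 93.0% in the controls and at 98.7%, 95.7% and 96.0% with DM-aKG, all treated libraries above the controls (4.44 points, 95% interval 1.45 to 7.44, limma adjusted p = 0.848). In Jag2 a stretch of 3 sites at chr12:112915694-112915717 was at 85%, 88.3% and 79.7% in the controls and at 68.3%, 78% and 64.7% with DM-aKG, all treated libraries below them (-14.0 points, 95% interval -23.8 to -4.22, limma adjusted p = 0.848). It includes the Jag2 site with the largest fall. The other stretches with an unadjusted p under 0.05 were in Notch1 and Jag1, at -5.89 and -6.22 points, and in these the groups overlapped.

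Whether a position had a value at all is a further readout of the same windows, and here Dll1 stood out among the members. A value was present at 87.0%, 87.0% and 73.9% of its 23 positions in the controls and at 65.2%, 65.2% and 56.5% with DM-aKG, without overlap. The difference was -20.3 points (95% interval -33.7 to -6.89), with an unadjusted p of 0.0112 and a limma adjusted p of 0.455 over 10361 genes, so it did not pass. Groups that do not overlap in this direction were found in 5.96% of genes, an unadjusted p under 0.05 in this direction in 5.42%, and 0.357% of genes passed the adjusted threshold, none of them a member. In the other 8 tested members the groups overlapped, from 91.7% in the controls and 80.6% with DM-aKG in Numb to 89.4% and 93.9% in Notch1. In Jag1 the means were 94.8% and 85.4%, from 84.4%, 100% and 100% in the controls and 84.4%, 87.5% and 84.4% with DM-aKG. Without control replicate 1, the control that was level with the lowest treated libraries, Jag1 passed (-14.6 points, limma adjusted p = 0.0333). This Jag1 difference rests largely on 4 neighbouring positions that had a value in control replicates 2 and 3 alone. Without control replicate 1, 256 of the 10361 genes passed. The number of genes passing in all was 37 with all libraries and 86 to 256 with any 1 left out.

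**Figure D4:**
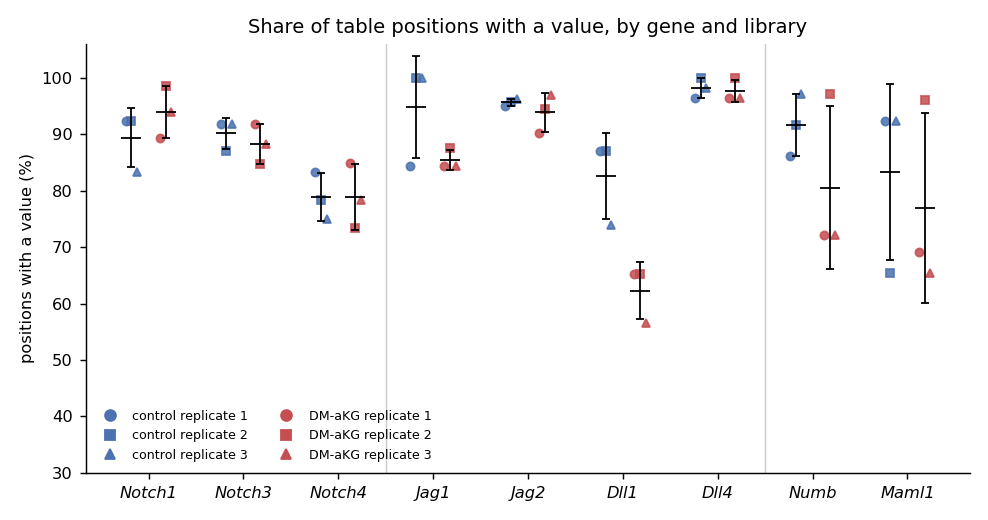
Share of table positions with a value (%, vertical axis, not starting at 0) in each of the 9 tested Notch pathway genes (horizontal axis), with a point per library and black bars giving group means with their SD (n = 3). The 3 DM-aKG libraries of Dll1, at 56.5% to 65.2%, lie below its 3 controls, at 73.9% to 87.0%; in the other genes the groups overlap.

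The Dll1 positions with a value in at least 2 controls and in no DM-aKG library lay in the promoter shown above. The 7 CpGs in capitals lie 123 to 211 bases before the start; 5 of them were at 100% in the 3 controls, the other 2 were at 100% in control replicates 1 and 2, and none had a value in any DM-aKG library. An eighth position, 281 bases before the start, was at 100% in the 3 controls and in DM-aKG replicate 3. Positions with a value in the 3 controls and in no treated library made up 0.459% of the table, and among the 549 member positions the 5 in Dll1 were the only ones. A value in at least 2 controls and in no treated library was found at 17 of the 549 member positions and at 5.11% of all. The reverse pattern was found at 9 of the 549 and at 2.9% of all. Both of these member shares were below those of all positions. The 7 positions are neighbouring cytosines of the plus strand and may share reads, so they are not counted as 7 separate measurements. They were singled out after their values were seen, and with the depth unknown an absent value cannot be read as an unmethylated one.

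**Figure D5:**
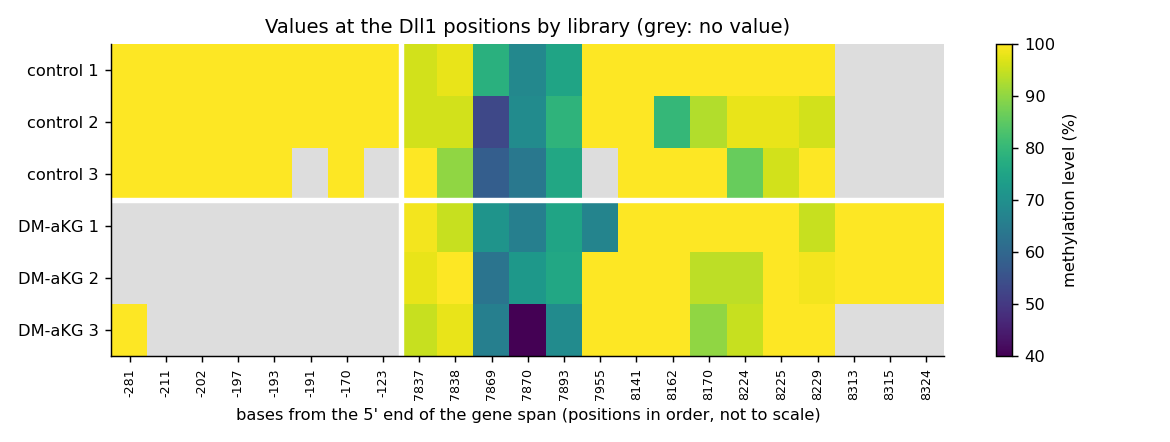
Methylation level (colour, %) at the 23 Dll1 positions (horizontal axis, bases from the upstream end of the gene span, in order and not to scale) in each library (vertical axis); grey marks no value. The 8 positions before the gene span are at 100% in the controls wherever they have a value and grey with DM-aKG except at -281 in replicate 3, while 3 positions at the far end have values in DM-aKG replicates 1 and 2 alone.

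Inside the Dll1 span the pattern was the opposite. A value was present at 80%, 80% and 73.3% of the 15 positions in the controls and at 100%, 100% and 80% in the treated libraries, 15.6 points more (limma adjusted p = 0.489 over all gene spans without flanks). It rests on 3 neighbouring positions, 7204 to 7215 bases from the nearest start, that were at 100% in DM-aKG replicates 1 and 2 and had no value in the other libraries. In Jag1, 4 neighbouring positions, 18687 to 18716 bases from the start, were likewise at 100% in control replicates 2 and 3 and without a value elsewhere. Of the member positions without a value in some library, 37.4% stood at 100% in each library that had one, against 40.02% in the whole table. Of complete member sites 5.22% did, against 3.33% in the whole table. Positions with fewer values meet this more easily, so the shares of incomplete and complete positions are not alike. One Notch3 position, at chr17:32143639, had values in the 3 treated libraries (46%, 52% and 40%) and in no control, where 40 is the lowest value the table records; 0.314% of all positions had that pattern.

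Among the other genes of the pathway none passed either. Of 72 listed genes 31 had at least 3 complete sites; 18 were higher and 13 lower with DM-aKG, with a median of 0.242 points, and 0 passed by limma, on percent levels or on log2 odds, while 3 of the 31 had an unadjusted p under 0.05, against 6.37% of all genes. The groups did not overlap in 4 of the 31 (Ncstn, Dner, Kat2a and Fbxw7), against 13.8% of all genes. Ncstn, which encodes the nicastrin subunit of the γ-secretase that frees the Notch intracellular domain, had 92.8%, 90.9% and 91.4% in the controls and 83.1%, 89.3% and 85.5% with DM-aKG over 8 sites. Its treated libraries lay below the controls, with a difference of -5.71 points (95% interval -9.67 to -1.74, limma adjusted p = 0.751). Hdac2, a histone deacetylase of corepressor complexes, had 97.0%, 92.3% and 96.0% in the controls and 92.7%, 83.0% and 81.0% with DM-aKG over 3 sites, with overlapping groups.

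Dner, a neuronal protein described as an atypical Notch ligand, had 86.0%, 87.8% and 85.8% in the controls and 89.0%, 90.2% and 89.5% with DM-aKG, and Kat2a, a histone acetyltransferase, 89.0%, 91.6% and 92.0% and 92.7%, 93.1% and 93.1%. In both the treated libraries lay above the controls, with differences of 3.05 and 2.10 points (limma adjusted p = 0.751 for each). By role the tested genes split 2 higher and 2 lower among other receptors and ligands, 4 and 4 in glycosylation and ligand endocytosis, 3 and 1 among processing proteases, 5 and 3 in the nuclear complex and its corepressors, 3 and 2 among inhibitors and 1 and 1 among target genes. Genes that mark other cell types a culture could hold averaged 86.2% ± 1.01 (SD, n = 3) in control and 87.6% ± 0.743 in treated libraries for endothelium (4 of 5 higher) and 80.8% ± 1.57 and 84.0% ± 1.61 for fibroblasts (6 of 7 higher), while 66.3% of all genes were higher and their mean went from 87.0% to 88.0%. By limma 0 genes of either list passed the adjusted threshold, and 0 and 2 had an unadjusted p under 0.05. Their part in the values of the Notch pathway genes was not tested.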

How the data were processed

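The deposited table gives the percent of methylation per cytosine position in 6 libraries, rounded to whole numbers. Per the submitters' processing notes the build was mm10 and the tools were CASAVA 1.8 and Novoalign 3.08.02; neither their roles nor the methylation caller is named there. The first 47.9% of rows were used, since in the others the libraries are out of register, and each 0 was set to missing. The start column counts from 1: at 4537 of 4540 positions in promoter windows it fell on a C or G of the reference.

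Gene levels are means over sites with a value in all 6 libraries, from 1000 bases before to 1000 after the GRCm38.p6 span, with at least 3 sites. They, the sites, and the share of positions with a value per gene were fitted over the whole table with limma 3.58.1 in R 4.3.3, with a trended prior, on percent levels, and adjusted by Benjamini-Hochberg. For the gene levels percent was preferred to log2 odds (offset 0.01) to keep intervals in points. Log2 odds served as an alternative for genes and sites. On simulated data the gene test called most genes changed by the larger sizes tried, while the site test called no changed site at any size tried; the other tests were not simulated. Every drop simulated was larger than the differences of the member genes. The simulation therefore does not tell whether the gene test could find differences as small as those. No coverage is given, so depth and its precision are unknown.

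Named sites were those with the largest and smallest difference per member; further sites with groups that did not overlap, the lowest site, and Fbxw7 were added after values were seen. The other pathway genes described have the 4 smallest p. The members and the lists (72 pathway genes, endothelium and fibroblast markers) were chosen with earlier results of these data known. Same-numbered libraries did not deviate together (correlations -0.0086 to 0.0189), so no replicate block was used.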

Additional observations from a re-analysis of the deposited data

How the results depend on the processing

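Over 18 alternatives to the gene test the 9 member genes gave 162 values, of which 143 kept their direction, 19 reversed and 0 passed the adjusted threshold. The lowest adjusted p among them was 0.4445. Part of the 143 are repeats of the main differences and are no check of direction. The 9 differences were identical to the main ones on log2 odds, with flanks shorter than 1000 bases and with the replicate block. They were also identical with the other minimum numbers of sites per gene. These alternatives bear on the adjusted p alone. Where a 0 was taken as a level of 0, the differences were 3.71 points in Notch1, -0.533 in Notch3, -8.28 in Jag1, -0.869 in Jag2, -20.7 in Dll1, -11.8 in Numb and -7.97 in Maml1, and ligands and effectors averaged -7.90 and -9.90. With at least 2 values in each group they were 0.189 in Notch1, -0.394 in Dll1 and -0.742 in Maml1. With library means equalised they were -0.0012 in Jag1, -0.886 in Jag2 and -0.839 in Dll1, and receptors and ligands averaged -0.882 and -1.01. With single libraries left out, the ranges were -1.59 to 0.385 points for Notch1, 1.95 to 3.11 for Notch3 and -2.75 to -0.719 for Notch4. Among ligands they were 0.84 to 1.43 for Jag1, -0.200 to 0.598 for Jag2, -0.833 to 1.76 for Dll1 and -1.99 to -0.629 for Dll4. Among effectors they were -1.63 to -0.693 for Numb and 0.258 to 3.39 for Maml1. In the same settings the number of members past the threshold for the share of positions with a value was 0 to 1 (Jag1, without control replicate 1). The Dll1 share differed by 15.6 points with a flank of 0 bases, or without the positions before its start, an alternative added after the data were seen. With the replicate block 0 member genes, 0 member sites and 0 other pathway genes passed, as without it; not every control library correlated best with the treated library of its own number. The cause of these shifts was not tested. The depth behind each level is not known, and the test of single sites found no changed site in simulated data.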
